A study of Mus musculus with 38 samples.

Results

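The 9 genes described here encode the core of the Hedgehog pathway: the ligand Shh, the receptor Ptch1, the binding proteins Hhip, Boc and Cdon, the signal transducer Smo and the transcription factors Gli1, Gli2 and Gli3. They were taken by symbol from 25965 genes in the RNA table, and all 9 were also found in the table of promoter marks. Neural stem and progenitor cells (NSPCs) had been derived from the subventricular zone (SVZ) of 3 months old (young adult) and 18 months old (aged) male mice and grown as neurospheres to passage 2 in medium with epidermal growth factor, basic fibroblast growth factor, B27 and heparin. Each derivation pooled the SVZ of 5 C57BL/6JBabr mice and was made on a separate day. There were 3 libraries per age for RNA, for bisulphite sequencing (BS), for oxidative bisulphite sequencing (oxBS), for H3K4me3, for H3K27me3 and for ChIP input, and 1 further RNA library per age came from C57BL/10 mice kept in another facility.

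In the absence of ligand, Ptch1 holds Smo inactive and Gli2 and Gli3 are processed to repressors at the primary cilium. When a ligand binds Ptch1 together with a coreceptor such as Boc or Cdon, Smo is released and Gli activators switch on targets, of which Gli1, Ptch1 and Hhip are the most widely used as readouts. Ptch1 and Hhip then bind ligand and limit the signal. In the adult SVZ, Shh signalling is known above all from the ventral stem cells.

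The RNA libraries held 16952486 to 41053972 reads, of which 65.5 to 69.3% were on genes, and the C57BL/10 pair held 27183304 and 24582963. The oxBS libraries gave 13616283 to 21389132 calls at CpG positions and the BS libraries 23121086 to 30400033. All 8 markers of NSPCs were expressed in every RNA library, and Nes lay between 10.3 and 10.8 log2 RPM. RPM, the unit of the deposited tables, is a read count scaled by the total reads of its library. Markers of other cell types also gave some signal. The summed level of 4 ependymal markers ran from 4.93 to 6.62 log2 RPM over the 6 C57BL/6JBabr libraries, nearly all of it from Foxj1. Of these 4, Tmem212 had at most 1 read in any library and Cfap126 had no row in the table.

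Promoter sequences of 6 members were present in the RefSeq promoter table (GRCm38.p6), each covering 250 bases before and 50 after an annotated start. The sequences of 4 are given, in lower case with every CpG dinucleotide in capitals. They show a contrast among these short stretches: 3 dense CpG promoters that were almost free of methylation, and 1 methylated start within Cdon with few CpGs. The promoter methylation values by age further below are of windows of 5 kb instead. The Cdon window used there does not contain this internal start. Ptch1 was read from chr13:63565686-63565985 on the minus strand, Gli3 from chr13:15463473-15463772 on the plus strand, Hhip from chr8:80057959-80058258 on the minus strand and Cdon from chr9:35451826-35452125 on the plus strand.
Ptch1: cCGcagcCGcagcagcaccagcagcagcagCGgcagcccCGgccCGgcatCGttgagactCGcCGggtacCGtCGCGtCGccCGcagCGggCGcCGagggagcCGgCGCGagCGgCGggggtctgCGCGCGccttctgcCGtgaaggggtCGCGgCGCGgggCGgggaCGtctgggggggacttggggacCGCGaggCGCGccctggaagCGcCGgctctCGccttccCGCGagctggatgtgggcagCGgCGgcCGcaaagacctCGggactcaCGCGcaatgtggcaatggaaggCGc
Gli3: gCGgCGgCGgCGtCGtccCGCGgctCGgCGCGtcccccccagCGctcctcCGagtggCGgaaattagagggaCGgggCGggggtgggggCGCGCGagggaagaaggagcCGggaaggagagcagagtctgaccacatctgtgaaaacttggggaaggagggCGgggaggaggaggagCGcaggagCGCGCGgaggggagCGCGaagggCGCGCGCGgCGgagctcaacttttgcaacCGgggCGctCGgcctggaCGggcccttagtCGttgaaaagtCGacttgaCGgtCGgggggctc
Hhip: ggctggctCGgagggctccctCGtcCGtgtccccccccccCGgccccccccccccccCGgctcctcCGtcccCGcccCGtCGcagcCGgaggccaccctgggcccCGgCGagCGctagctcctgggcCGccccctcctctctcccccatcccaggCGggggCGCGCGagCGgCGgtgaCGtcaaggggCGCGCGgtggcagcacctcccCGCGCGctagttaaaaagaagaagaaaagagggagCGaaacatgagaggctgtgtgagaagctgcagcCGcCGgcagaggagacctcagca
Cdon, internal start: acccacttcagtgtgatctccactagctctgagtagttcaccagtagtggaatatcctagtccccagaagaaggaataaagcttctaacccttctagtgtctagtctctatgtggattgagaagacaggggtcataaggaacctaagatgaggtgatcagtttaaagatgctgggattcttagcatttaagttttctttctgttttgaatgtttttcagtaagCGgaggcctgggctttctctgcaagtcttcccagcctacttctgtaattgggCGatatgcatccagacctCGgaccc

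The Ptch1 stretch holds 47 CpGs, more than 98.6% of 32851 promoters, and 1 of 140 oxBS calls on it was methylated (0.714%, exact 95% interval up to 3.92%, covering counting error only). Gli3 has 39 CpGs and 1 methylated call of 247. Hhip has 30 CpGs and 0 of 35 calls was methylated (exact 95% interval up to 10.003%), and 3 calls of 35, the limit used for a count of 0, would be 8.57%. In the calls of both ages together, these 3 promoters were thus nearly free of 5-methylcytosine. The internal Cdon stretch has 3 CpGs against a median of 7, and 17 of 17 calls were methylated. The other 2 promoters found, of Gli2 with 28 CpGs and Smo with 17, had 0 methylated calls of 184 and of 32. The 9-base Gli motif GACCACCCA, sought on both strands, was in 0 of these 6 windows of 300 bases and in 83 of the 32851 promoters (0.253%). This says only that these letters are not in these windows.

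The levels of the members spanned about 3 orders of magnitude (see the plot of RPM per kb of exon). Per kilobase of exon, Smo stood highest, with a lowest, median and highest value of 22.3, 23.7 and 24.8 RPM per kb over the 6 C57BL/6JBabr libraries. Cdon followed with 4.87, 9.32 and 11.96, and Ptch1 with 4.34, 4.71 and 5.01. The receptor, the transducer and the coreceptor Cdon were thus all well expressed. Gli3 had a median of 1.48, Boc of 1.18, Gli2 of 0.623 and Shh of 0.331 RPM per kb. Hhip, with a median of 0.0384, and Gli1, with 0.0217, came last. Among neighbours in this order the ranges overlapped for Cdon and Ptch1, for Gli3 and Boc, for Gli2 and Shh and for Hhip and Gli1, and did not overlap for Smo and Cdon, Ptch1 and Gli3, Boc and Gli2, or Shh and Hhip.

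**Figure D1:**
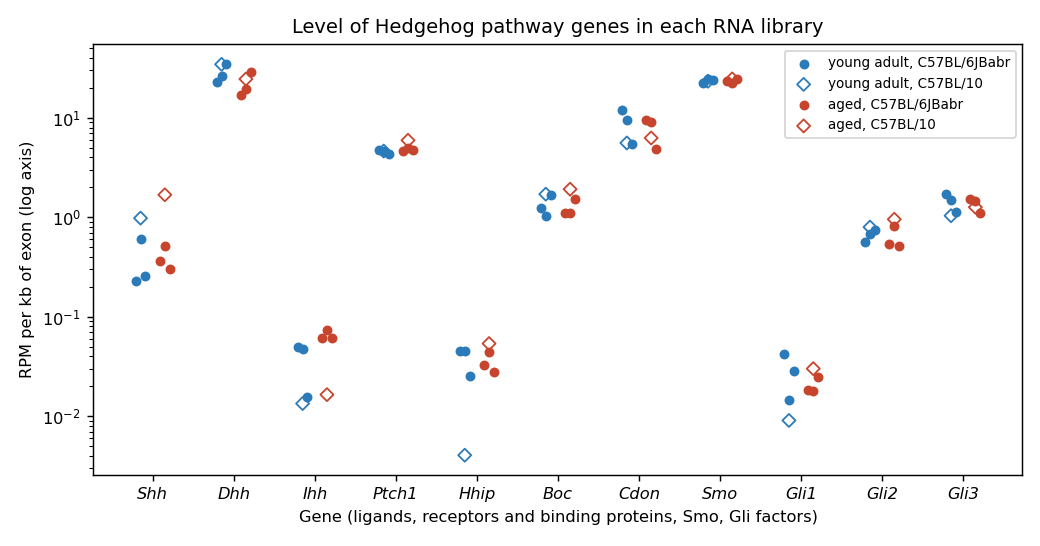
Level of 11 Hedgehog pathway genes in RPM per kb of exon (log axis); each point is 1 RNA library, filled for C57BL/6JBabr and open for C57BL/10. In C57BL/6JBabr, Smo lies between 22.3 and 24.8 RPM per kb and Dhh between 16.9 and 35.2, whereas Hhip and Gli1 lie at 0.0456 or less.

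Gli1 and Hhip were read by few fragments. Gli1, the target most often used as a readout, at chr10:127329889-127341589, had 7, 1 and 3 reads in young adult replicates 1 to 3 and 3, 2 and 4 in aged replicates 1 to 3. The C57BL/10 libraries had 1 read (young adult) and 3 (aged). Gli1 RNA was therefore near the limit of detection in every culture, and its mean of -3.43 log2 RPM was under the level of -2 set for testing. In sum 11 young adult and 9 aged reads gave a ratio of aged to young adult of 0.642, with an exact 95% interval of 0.235 to 1.70 for counting error alone. An antisense gene overlaps Gli1 in GENCODE vM21, and the library kit does not keep strand, so even these few reads cannot be assigned with certainty. Hhip, at chr8:79966115-80058006, had 17, 7 and 6 reads in young adult and 12, 11 and 10 in aged C57BL/6JBabr libraries.

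Shh was not the main ligand RNA of these cultures. Shh, at chr5:28456815-28467101, had 27, 29 and 19 reads in young adult and 41, 41 and 34 in aged C57BL/6JBabr NSPCs. On the scale per kilobase, Dhh, the ligand known from Schwann cells and testis, ranged from 16.9 to 35.2 RPM per kb over the same 6 libraries and Ihh, the ligand of cartilage and gut, from 0.0155 to 0.0732. The lowest Dhh value was thus far above the highest Shh value of 0.601. The comparison carries 2 limits. An antisense transcript overlaps Shh, and in GENCODE vM21, though not in the deposited spans, Rhebl1 overlaps Dhh on the same strand.

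The first question of the design is whether the pathway changes with age. In C57BL/6JBabr NSPCs none of the 8 members tested did at an adjusted p of 0.05 (limma, Benjamini-Hochberg over 14858 genes), against a background of 0% (0 of 14858 genes called, with 258 at an unadjusted p under 0.05). No member was among those 258. This fit left out the replicate number of the libraries, as did the SEs given for age below. The paper, also with limma and at the same threshold, did call genes between these ages. In bulk RNA, fewer cells of a type and less RNA per cell cannot be told apart. For 0 of the 8 members did the 3 young adult and 3 aged values stand apart without overlap, against 5.20% of all genes tested. The median difference of the 8 was -0.08 on the log2 scale, and that of all genes was 0.00149.

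Ptch1, at chr13:63511533-63565520, is both receptor and target. It had 5.22, 5.17 and 5.08 log2 RPM in young adult replicates 1 to 3 and 5.18, 5.29 and 5.23 in aged replicates. The values overlapped, and aged NSPCs differed by 0.08 ± 0.08 (SE; adjusted p = 0.99998). Smo, at chr6:29735694-29761365, had 6.42, 6.53 and 6.49 in young adult and 6.47, 6.39 and 6.55 in aged, a difference of -0.0066 ± 0.080. With SDs of 0.07 and 0.05 (Ptch1) and 0.06 and 0.08 (Smo; n = 3 each), these 2 genes were the steadiest of the members.

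Among the Gli factors, Gli2 (chr1:118834132-119053619) is the main activator and Gli3 (chr13:15463235-15730026) the main repressor. Gli2 had 1.90, 2.18 and 2.31 log2 RPM in young adult and 1.85, 2.46 and 1.76 in aged replicates. Gli3 had 3.83, 3.64 and 3.25 in young adult and 3.67, 3.60 and 3.2 in aged replicates. Both overlapped between ages, with differences of -0.11 ± 0.22 and -0.09 ± 0.19. Within each of the 3 replicate numbers the aged Gli3 value was the lower one, a pattern whose share among all genes was not counted.

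The coreceptor Cdon (chr9:35421128-35507651) had 6.49, 6.18 and 5.36 log2 RPM in young adult and 6.15, 6.1 and 5.19 in aged replicates. The ages overlapped because replicate 3 lay far below the others at both ages. The difference was -0.19 ± 0.33 (adjusted p = 0.99998), and aged was lower within 3 of 3 numbers, as for Gli3, with the share of all genes not counted. When the replicate number entered the limma model as a block, the SE of Cdon was 0.071, with an unadjusted p of 0.0204 and an adjusted p of 0.465. With that block 74 of 14858 genes (0.498%) and 0 of the 8 members were called. Boc, the related coreceptor at chr16:44485045-44558897, had 2.47, 2.18 and 2.92 in young adult and 2.31, 2.30 and 2.76 in aged replicates, a difference of -0.07 ± 0.22. Shh had -0.60, 0.77 and -0.46 in young adult and 0.04, 0.57 and -0.22 in aged replicates, a difference of 0.22 ± 0.41. The Hhip values also overlapped, from -2.12 to -1.27 in young adult and from -1.98 to -1.33 in aged.

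**Figure D2:**
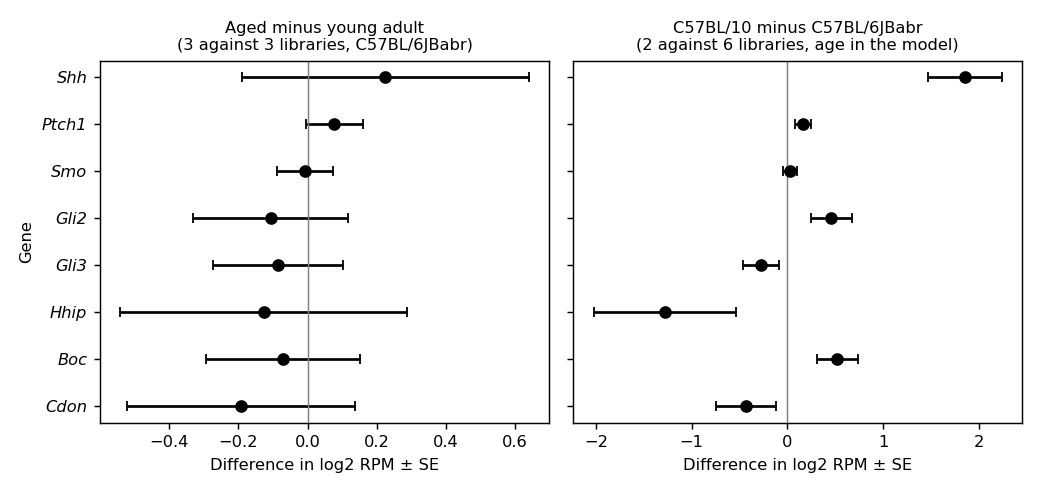
Differences in log2 RPM for the 8 members tested, with standard errors of fits without the replicate block as bars: aged minus young adult in C57BL/6JBabr (left) and C57BL/10 minus C57BL/6JBabr (right); the 2 panels have different axis ranges. On the left the differences lie between -0.19 and 0.22, and on the right Shh lies at 1.86.

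Of 75 other pathway genes found in the table, 66 were tested and 0 were called for age. Their median difference was 0.01. The 3 most negative differences were those of Zic1, Zic2 and Dhh, and the positive ones included Jag2 (0.56) and Prdm1 (0.27). None of these passed the test. Zic1, a zinc-finger factor that can bind Gli proteins, had 0.73, 2.70 and 1.05 log2 RPM in young adult replicates and -0.86, -2.21 and -1.05 in aged replicates, so the ages did not overlap. The difference was -2.87 ± 0.57 (unadjusted p = 0.000905, adjusted p = 0.99998 in limma), and Zic1 was called lower with the replicate block (adjusted p = 0.0306). In C57BL/10 it was 1.04 in the young adult and 0.08 in the aged library.

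Dhh was lower in the aged library of each of the 3 numbers, with 6.68, 6.85 and 7.27 log2 RPM in young adult and 6.22, 6.42 and 6.98 in aged replicates. The ages overlapped across numbers. The difference was -0.39 ± 0.21 (adjusted p = 0.99998), and with the replicate block Dhh was called lower (adjusted p = 0.0286). In C57BL/10 Dhh was 7.25 in the young adult and 6.76 in the aged library. A list of 7 genes of the ventral SVZ domain, which includes Zic1 itself, had a summed level of 2.86 to 3.95 log2 RPM in young adult and 2.16 to 2.43 in aged C57BL/6JBabr libraries, and of 2.92 and 2.43 in C57BL/10. Nkx6-2 of this list differed by -0.04 and Dlx2 by -0.79, and neither was called with or without the replicate block. Nkx2-1 and Gsx2 of this list had at most 5 and 3 reads in any library. The summed level of 4 astrocyte markers also stood apart by age, at 10.4 to 10.6 log2 RPM in young adult and 10.102 to 10.3 in aged C57BL/6JBabr libraries, and was 10.5 and 9.95 in C57BL/10. Most of this sum was Aldh1l1, whose own values overlapped between ages, at 10.03 to 10.32 in young adult and 9.62 to 10.04 in aged libraries. Aqp4 and Aldoc overlapped too, and only Gfap stood apart. None of the 4 was called for age. The part of regional origin and of astrocytic cells in the Zic1 and Dhh differences was not tested.

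Some members also differed between replicate numbers. The labels do not say what a number shares. However, the library of each number deviated from its age mean together with its counterpart of the other age, with correlations of 0.659, 0.179 and 0.724 over 14858 genes, which are given as a description. In a limma F test of the number with age in the model, 4 of the 8 members were called against a background of 22.0% of all genes tested. These were Cdon (adjusted p = 3.85e-05), Gli3 (0.0133), Boc (0.0294) and Shh (0.0499), of which Shh lost its call without the filter on low values (0.0847). Ptch1, Smo, Gli2 and Hhip were not called, with adjusted p of 0.800, 0.749, 0.245 and 0.451.

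Cdon averaged 6.32, 6.14 and 5.28 log2 RPM over both ages in numbers 1, 2 and 3, a range of 1.04. Gli3 followed the same order, with 3.75, 3.62 and 3.22, whereas Boc was highest in number 3, with 2.39, 2.24 and 2.84. Shh was highest in number 2, with -0.28, 0.67 and -0.34. The coreceptors thus moved in opposite directions in number 3 (see the plot by replicate number). These calls depended on number 3: without young adult or without aged replicate 3, only Cdon of the 8 members was called (adjusted p = 3.60e-07 and 1.09e-07), with the remaining library of number 3 assumed to vary like the others. Without young adult replicate 2, Shh lost its call as well (adjusted p = 0.260) and Gli2 was called (0.00319).

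**Figure D3:**
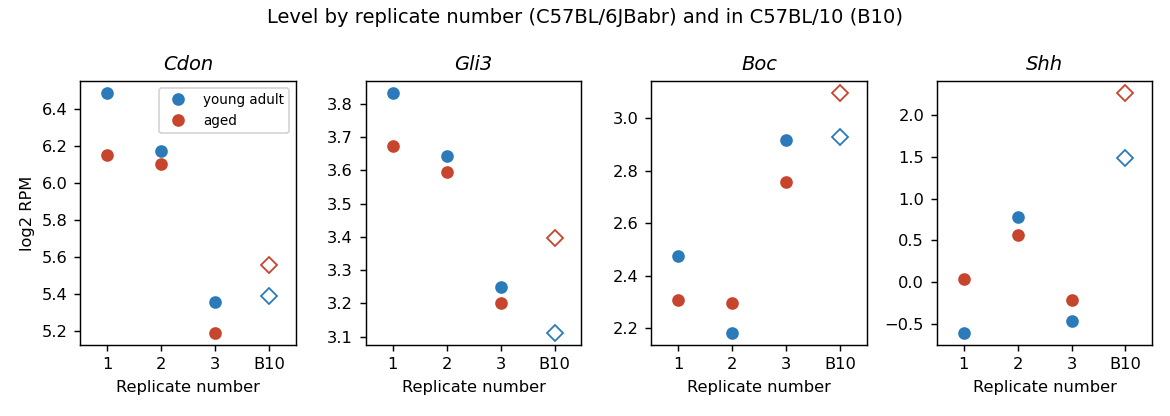
Level in log2 RPM of the 4 members called for replicate number, against the number in C57BL/6JBabr (filled) and in C57BL/10 (open, B10), blue for young adult and red for aged. Cdon and Gli3 are lowest and Boc highest in number 3 among the C57BL/6JBabr libraries, and Shh is highest in number 2.

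Markers of other cell types moved with the number as well. The summed ependymal markers were 4.93, 6.00 and 6.62 log2 RPM in young adult replicates 1 to 3 and 5.09, 5.73 and 6.52 in aged replicates. Nearly all of this sum was Foxj1 alone. The 5 markers of the oligodendrocyte lineage were highest in number 2, with 6.22 and 6.39 against 5.64 to 5.80 in the other 4 libraries. Their part in the differences of Cdon, Gli3, Boc and Shh was not tested. Of the 66 other pathway genes tested, 17 were called for number, a share near the 22.0% of all genes tested. Of the coreceptors and glypicans, Gas1, Gpc4 and Gpc6 were lowest in number 1, while the endocytic receptor Lrp2 was highest there, with 3.16, 2.26 and 1.67 log2 RPM in numbers 1, 2 and 3. Dhh was highest in number 3, with 6.45, 6.64 and 7.13. The others included the targets Bcl2, Cdk6, Foxm1, Mycn, Olig2 and Prdm1, the kinase subunits Prkaca and Prkacb, Spop, which targets Gli proteins for degradation, Tulp3, a ciliary trafficking factor, and Iqce.

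The C57BL/10 pair asks whether the pathway's levels hold in a separate cohort. Strain, facility and cohort cannot be told apart in it. Shh differed: it had 76 reads and 1.48 log2 RPM in the young adult and 118 reads and 2.26 in the aged C57BL/10 library, both above the highest C57BL/6JBabr value of 0.77. The difference, with age in the limma model, was 1.86 ± 0.39 (adjusted p = 0.00694). Shh was the 1 member of 8 called, against a background of 30.1% of all genes. Without the young adult or without the aged C57BL/10 library the adjusted p was 0.0550 and 0.116, at differences of 2.13 and 1.58.

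These differences stand on an uneven scale. The median of all genes tested was 0.17 higher in C57BL/10 on the deposited log2 RPM, and 2703 genes were called higher and 1765 lower. In edgeR with TMM scaling of the recovered reads the median was -0.0074, and 638 genes were called higher and 1989 lower. Under TMM scaling the Shh difference was 1.67 (edgeR adjusted p = 0.00678). In limma Boc differed by 0.52 ± 0.21 (adjusted p = 0.0879), Gli2 by 0.46 ± 0.22 (0.133), Ptch1 by 0.16 ± 0.09 (0.185), Cdon by -0.44 ± 0.31 (0.313), Gli3 by -0.28 ± 0.19 (0.277) and Hhip by -1.28 ± 0.75 (0.215). None of these passed. Single libraries decided this for Boc, called higher without young adult replicate 3 (0.62, adjusted p = 0.0299), and for Hhip, called lower without the aged C57BL/10 library (-3.21, adjusted p = 0.00970), when its only C57BL/10 library had 1 read. Smo was again steady, at 6.47 and 6.54 log2 RPM. The Ptch1 and Smo differences were negative in edgeR with TMM scaling, at -0.0046 and -0.14.

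Of the 66 other pathway genes, 25 were higher and 2 lower in C57BL/10, with a median of 0.29, against 30.1% of all genes called and a median of 0.17. By direction, 2703 of all 14858 genes tested were called higher and 1765 lower in this limma fit. Higher were 9 of 14 genes of ciliary transport (Arl13b, Cep290, Dync2h1, Ift172, Ift27, Ift88, Kif3b, Rab23 and Rpgrip1l), by 0.33 for Arl13b up to 0.60 for Ift88. Higher were also 8 of 16 regulators of Gli proteins (Btrc, Csnk1a1, Fbxw11, Gsk3b, Prkar1a, Spop, Stk36 and Sufu), 5 of 13 of Smo (Arrb1, Efcab7, Evc, Evc2 and Smurf2), Scube1, and the targets Ccnd2 and Sfrp1. Foxm1, a factor of the cell cycle, differed by -0.91 ± 0.16 (adjusted p = 0.00243) and Rasl11b by -0.96 ± 0.27 (0.0262). In edgeR with TMM scaling 4 of the 66 genes were called. Efcab7 (1.18) and Sfrp1 (0.54) were higher and Foxm1 (-1.07) and Rasl11b (-1.15) lower. Of all 14858 genes tested, the edgeR fit called 638 higher and 1989 lower. The change of scaling and that of the model were not tested apart. Markers of other cell types also differed with strain: Mbp, of the oligodendrocyte lineage, by -3.27 (limma adjusted p = 0.00544), and the astrocyte markers Gfap by -0.70 (0.00979) and Aldoc by -0.97 (0.00339). The other 2 astrocyte markers were not called, Aqp4 at 0.25 and Aldh1l1 at -0.02, and the astrocyte sums of the strains overlapped. The summed markers of the oligodendrocyte lineage were 4.99 and 5.26 log2 RPM in C57BL/10, under the 5.64 to 6.39 of C57BL/6JBabr. The part of these cell types in the differences of Shh and the other pathway genes was not tested.

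Within C57BL/10 there was 1 library per age, so no test is possible without borrowing the spread of the other strain. Hhip had 1 read in the young adult and 12 in the aged library, a ratio of 13.3 with an exact 95% interval of 1.96 to 567.2 for counting error alone. A limma test of whether the age difference itself differed between the strains gave an unadjusted p of 0.00157 and an adjusted p of 0.999999 for Hhip. For the other 7 members tested the unadjusted p ran from 0.123 to 0.609. Ptch1 was 5.18 in the young adult and 5.54 in the aged library.

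In its promoter, each member held H3K4me3, the mark of active or poised starts. Marks were given as 1 pooled value per age in windows of 5 kb centred on each transcript's start, so no test was possible, and for each gene the window with the highest H3K4me3 was used. H3K4me3 ran from 4.99 log2 RPM at Hhip to 7.16 at Ptch1 in young adult NSPCs and from 5.19 to 7.43 in aged NSPCs, and ChIP input from 0.49 to 1.32 and from 0.70 to 1.25. The Ptch1 value was higher than 99.9% of the 25888 genes' windows. All 9 members were at least 2-fold above input in both ages, against a background of 57.8% of genes.

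H3K27me3, the mark of Polycomb repression, separated the members. It was highest at Shh, with 5.25 log2 RPM in young adult and 5.19 in aged NSPCs, above 98.3% of genes' windows in young adult NSPCs. Hhip followed with 3.64 and 3.71 and Gli1 with 3.53 and 3.54. Gli2 had 2.33 and 2.42, Cdon 1.82 and 2.26, Gli3 1.64 and 2.20, Smo 1.00 and 0.98, and Boc 0.84 and 1.35. Ptch1 was lowest, with -0.36 and -1.59, under its input values of 0.49 and 0.70. The 3 members with most H3K27me3, Shh, Hhip and Gli1, also had the 3 lowest medians of RNA per kilobase in C57BL/6JBabr. The ranges of Shh and Gli2 overlapped there. In C57BL/10, which had no ChIP libraries, Shh had 0.98 (young adult) and 1.69 (aged) RPM per kb, above Gli2 with 0.80 and 0.96.

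Both marks were at least 2-fold above input in both ages at 5 members (Shh, Gli1, Gli2, Gli3 and Hhip), against a background of 9.93% of genes (15.0% for H3K27me3 alone). At 4-fold, a threshold chosen after the values were seen, 3 members (Shh, Gli1 and Hhip) and 4.67% of genes held both. At Cdon the answer depended on the start: in the window of Cdon-001, about 2 kb upstream of the one used, H3K27me3 was 2.74 in young adult and 3.23 in aged NSPCs. The window over the internal Cdon start whose sequence is given above had no H3K4me3 above input, at -1.07 and -1.91 log2 RPM.

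**Figure D4:**
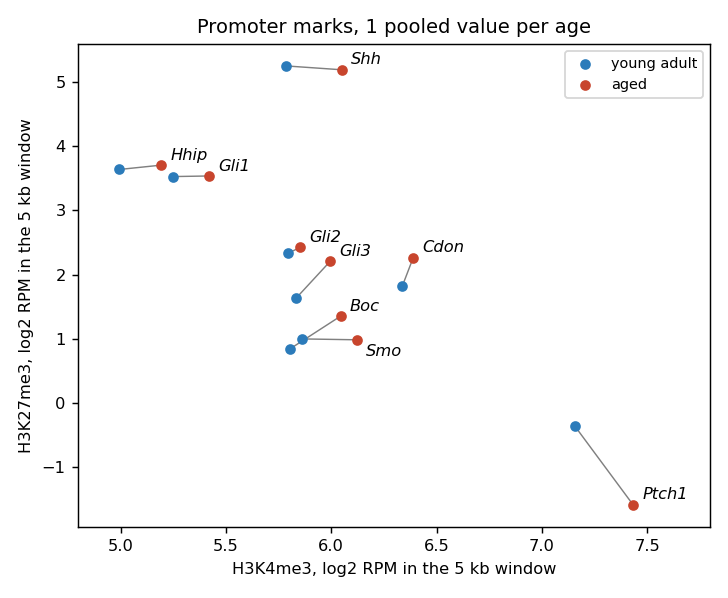
H3K27me3 against H3K4me3 in the promoter window of each member, both in log2 RPM with 1 pooled value per age; grey lines join young adult (blue) and aged (red). Shh lies at the top with 5.25 and 5.19 for H3K27me3, and Ptch1 at the lower right.

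With age the promoter marks of the members moved little. By the rule of a 1.5-fold change with a level above 1 log2 RPM in either age, 0 of 9 members changed in H3K4me3 and 0 of 9 in H3K27me3, against backgrounds of 0.212% and 1.5% of genes. H3K4me3 was higher in aged NSPCs at 9 of 9 members, by 0.05 to 0.28, but the median of all windows was also higher by 0.15, and after quantile normalization 3 of 9 members were higher. For H3K27me3 the differences ran from -1.23 at Ptch1, which was under 1 log2 RPM at both ages, to 0.57 at Gli3. After input was subtracted, 2 members passed the rule for H3K27me3, against 2.09% of all windows. These were Gli3 with a difference of 0.80 and Cdon with 1.56, both higher in aged NSPCs. At Cdon the difference before subtraction was 0.44, and its input was 1.32 in young adult and 0.79 in aged NSPCs. Its young adult value after subtraction was only 0.06 log2 RPM. At Gli3 the input was 0.58 in young adult and 0.84 in aged NSPCs.

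DNA methylation around the starts differed widely between the members. The oxBS libraries read 5-methylcytosine (5mC) alone, and each value is the share of methylated calls in the 5 kb window. In young adult NSPCs, with the 3 libraries' calls summed, it ran from 0.397% at Ptch1 to 36.8% at Hhip, against a median of 33.1% over 23798 genes' windows. Ptch1 had 0%, 0.766% and 0.429% in young adult replicates 1 to 3 and 0%, 0.380% and 0% in aged replicates, from 185 to 297 calls per library. Its stretch under 20% methylation spanned 6000 bp, from 3000 bp upstream to 3000 bp downstream of the start, and was the widest of the 9 within 5 kb. Those of the others were 1500 to 3000 bp, and the share of methylated calls within them was 0.334% at Cdon to 6.94% at Hhip.

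**Figure D5:**
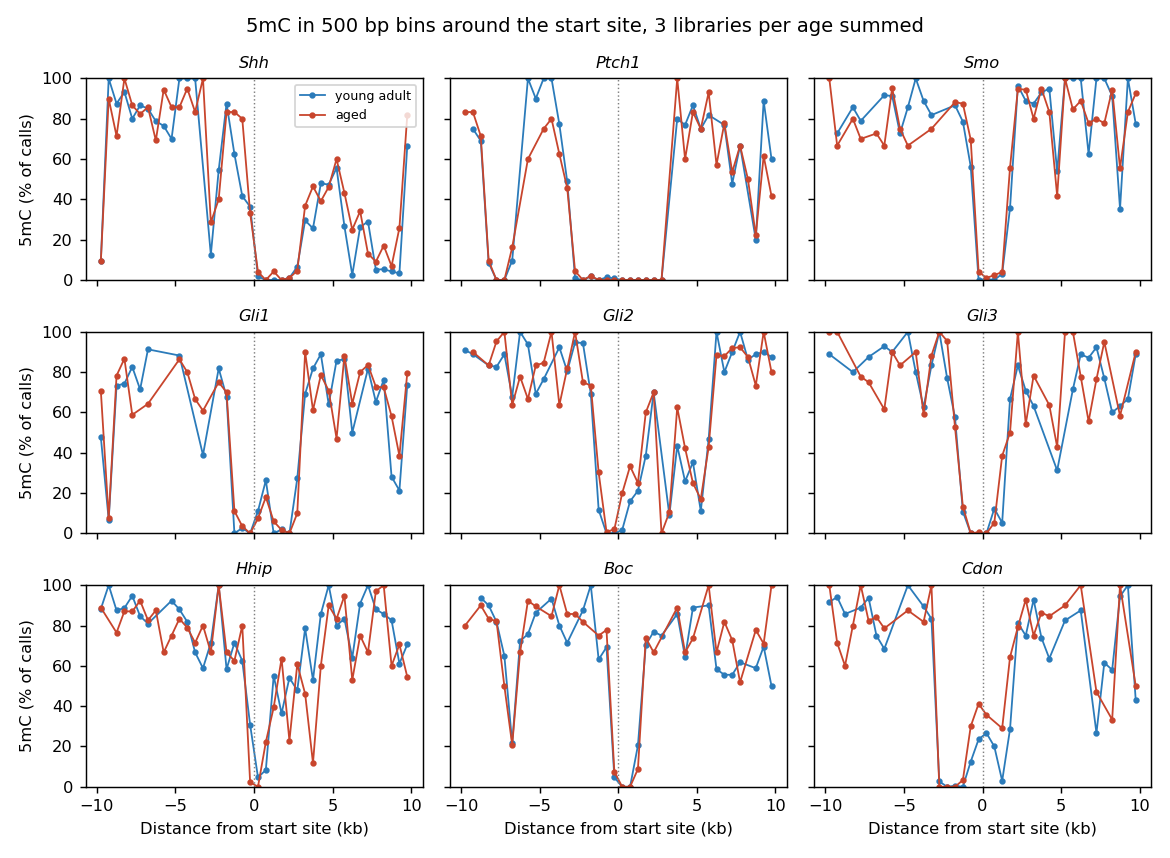
5mC as percent of oxBS calls in bins of 500 bp within 10 kb of the start of each member, with the calls of 3 libraries per age summed and bins of under 5 calls left out, blue for young adult and red for aged. Ptch1 is unmethylated over 6000 bp, and at Cdon the unmethylated stretch lies 1000 to 3000 bp upstream of the start used.

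No promoter window was called for age in 5mC, among members or other genes. The background was 0% of 23798 windows (quasi-binomial model, adjusted p under 0.05 and at least 10 percentage points), with 1293 windows at an unadjusted p under 0.05. Smo had 9.15%, 19.1% and 22.1% in young adult and 20.5%, 25.2% and 33.3% in aged replicates, a difference of 8.40 percentage points (adjusted p = 0.926). Cdon had 4.08%, 4.66% and 7.79% in young adult and 19.4%, 7.29% and 10.8% in aged replicates (unadjusted p = 0.0278, adjusted p = 0.911). Both overlapped between ages.

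Hhip had 28.6%, 53.5% and 28.6% in young adult and 25.9%, 21.9% and 25.9% in aged replicates. The ages did not overlap. The difference was -12.3 percentage points, and without young adult replicate 2, the highest library with 86 calls, it was -4.07. In the BS libraries, described next, the same window had 17.4% in that replicate, and the ages overlapped, at 29.2% in aged against 28.0% in young adult NSPCs. Shh had 7.18%, 7.18% and 6.13% in young adult and 8.00%, 10.06% and 15.0% in aged replicates. Gli2 had 16.2%, 12.3% and 16.4% in young adult and 19.2%, 18.4% and 22.0% in aged replicates. With Hhip these 2 made 3 of 9 members whose ages did not overlap, against 10.5% of all windows, and none of the 3 passed the test (adjusted p = 0.951 for Shh, 0.953 for Gli2 and 0.914 for Hhip). Gli1, Gli3 and Boc differed by -0.36, -0.75 and -1.25 percentage points.

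The BS libraries read 5mC and 5-hydroxymethylcytosine (5hmC) together. Again 0% of windows were called (0 of 24545, with 1194 at an unadjusted p under 0.05), and 0 of 9 members. Gli1 had 4.09%, 5.59% and 3.2% in young adult and 12.4%, 7.56% and 10.9% in aged replicates, a difference of 6.11 percentage points. Gli2 had 16.7%, 17.0% and 13.4% in young adult and 19.5%, 26.1% and 19.7% in aged replicates, a difference of 5.82. These 2 of 9 members did not overlap between ages, against 9.59% of windows, and had unadjusted p of 0.00491 and 0.0479 (adjusted p = 1 for both). In the oxBS libraries the Gli1 values of the ages overlapped, and those of aged replicates, from 8.88% to 17.7%, enclosed those of young adult replicates.

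Subtracting oxBS from BS within a replicate number estimates 5hmC. At Ptch1 this gave -0.17 to 0.74 percentage points, and at Gli1 values from -10.4 to 1.56, of which 5 of 6 were below 0, as no true level can be. Cdon was above 0 in 5 of 6, from -5.33 to 12.1, and the other 7 members in 3 or 4 of 6. At the depth of 48 to 381 calls per window and library, no level of 5hmC is given for these promoters. Outside the promoters, 5mC over the gene body was 71.3 to 80.5% in young adult NSPCs for Boc, Gli2, Gli3, Hhip, Smo and Cdon, 63.2% for Gli1, 55.3% for Ptch1 and 17.2% for Shh. The Shh value was higher than 0.892% of 18607 gene bodies. The Shh body had 13.7%, 22.8% and 17.2% in young adult and 17.8%, 27.2% and 29.1% in aged replicates, which overlapped. For age 0% of gene bodies and 0 of 9 members were called, and 0 members had ages that did not overlap, against 9.16% of gene bodies.

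Genes with a course over the 8 RNA libraries like that of Gli1 were sought as the smallest root mean square difference of deviations from each gene's mean. The nearest were Gm4969, Gm13547, Unc13d, Gng13 and Gm12500, at 0.36 to 0.39 log2 RPM. Since Gli1 had 1 to 7 reads per library, this order rests on few reads. For Cdon, chosen after its values were seen, the nearest were Trp53i11, the imprinted gene Mest, Litaf, Fbln1 and Hey2, at 0.14 to 0.18. For Shh, chosen likewise, they were Fam38b, Slitrk1, Gria1, Gabra2 and Pvalb, at 0.33 to 0.39.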

How the data were processed

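The deposited RNA table gave log2 RPM per gene, which the authors had scaled to the total reads of each library. Steps of the low values gave whole reads for 100% of values up to 1000 reads (tolerance 0.02). Genes with a mean of at least -2 log2 RPM over the 6 C57BL/6JBabr libraries were tested in limma 3.58.1 (R 4.3.3), with edgeR 4.0.16 and DESeq2 1.42.0 on the recovered reads as alternatives. P-values were adjusted by the Benjamini-Hochberg method at 0.05. The replicate numbers were taken to pair libraries because all 3 correlations of same-numbered deviations were above 0.1, and the fit with the number as a block is given where it changed a call. ChIP values were the authors' pooled log2 RPM per age in windows of 5 kb. The deposited counts of methylated and unmethylated calls per CpG were summed per window and compared in a quasi-binomial model with moderated dispersion, for windows with at least 10 calls in every library. The fits were tested on simulated data. The submitters' processing notes name GRCm38, Trim Galore 0.4 and 0.3.7, STAR 2.3.0, Bowtie2 2.2.5 and Bismark 0.12.5. Exon lengths came from GENCODE vM21 and are not those of the deposited annotation. The text names the 9 members, of the other pathway genes the 3 largest age differences each way and every gene called, and the 5 genes nearest to Gli1, except for a few genes that are not reported here. The members and gene lists were chosen with earlier results of these data known. Where derivations are separate, p-values measure the spread between pools of 5 mice.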

Additional observations from a re-analysis of the deposited data

Results flagged for a closer look

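Gli3 and Cdon were each lower in the aged library of 3 of 3 C57BL/6JBabr numbers and higher in the aged than in the young adult C57BL/10 library. Both were picked from the members tested because of this pattern of signs, and its share among all genes tested was not counted. In C57BL/10 the aged library was higher by 0.29 log2 RPM for Gli3 and by 0.17 for Cdon, whereas the C57BL/6JBabr means differed by -0.09 and -0.19. A limma test of the difference between the strains gave an unadjusted p of 0.356 for Gli3 and 0.603 for Cdon (adjusted p = 0.999999 for both).

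At the Smo promoter, BS minus oxBS was above 0 in all 3 young adult numbers (5.54, 2.66 and 0.51 percentage points) and below 0 in all 3 aged numbers (-4.44, -4.46 and -5.56), so the age means differed by 7.72 percentage points. This difference was not tested, and values below 0 cannot be levels of 5hmC. Smo was picked from the members because of this pattern, and the share of all windows that show it was not counted.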

How the results depend on the processing

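For age, 74 genes were called with the replicate block and 4 with DESeq2, and 0 members under every setting run; for promoter 5mC, 5mC plus 5hmC and gene bodies the replicate block called 0. RNA differences of members that turned sign were Smo with quantile normalization (0.000443) and with both strains (0.0146), and, with both strains, Gli3 (0.0075) and Hhip (0.84). Leaving out 1 library gave ranges of -0.029 to 0.66 (Shh), -0.045 to 0.033 (Smo), -0.32 to 0.024 (Gli2), -0.25 to 0.059 (Gli3), -0.41 to 0.022 (Hhip), -0.24 to 0.13 (Boc) and -0.52 to 0.12 (Cdon). For strain, edgeR called 2627 genes and gave -0.0046 for Ptch1 and -0.14 for Smo, and leaving out 1 library gave 1478 (without young adult C57BL/10) to 4692 genes, 0 to 2 members, -0.014 to 0.071 for Smo and -3.21 to 0.65 for Hhip. For number, leaving out 1 library gave 1473 to 6831 genes and 1 to 4 members, and without a filter the adjusted p of Shh was 0.0847. In 1 kb around the start, 5mC differed by 0.32 (Gli3) and 1.14 (Boc) percentage points and 5mC plus 5hmC by -0.45 (Boc). Leaving out 1 library gave, for 5mC, -2.04 to 1.84 (Gli1), -3.83 to 3.78 (Gli3) and -5.36 to 3.08 (Boc), for both together -0.34 to 0.088 (Ptch1), -0.85 to 5.22 (Smo), -5.17 to 5.65 (Hhip) and -2.74 to 7.97 (Cdon), and 0 to 1 gene bodies called. Input subtraction gave 127 windows changed in H3K4me3 and 2 members in H3K27me3, and a 2-fold rule 5 and 39 windows for H3K4me3 and H3K27me3. At 4-fold over input, chosen after seeing the data, 3 members held both marks instead of 5. In all, 526 of 597 alternative values were counted as the same as the main value. Counts of calls needed only to be close to the main count. For promoter marks, a change of sign without a call was not counted as a reversal. H3K4me3 was higher in aged NSPCs at 9 members in the main setting and at 3 after quantile normalization. The causes were not tested. A library left alone in its group was assumed to vary like the others. Few reads limit Gli1 and Hhip, and few calls per window limit 5hmC.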
